A study of Mus musculus with 2 samples.

Results

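Chemokines and their receptors were examined in Flk1+Tie2+ cells, the fraction of embryoid bodies that holds the endothelium, with and without a pulse of Mesp1. The members are all probe sets of the array whose annotated gene symbol is that of a chemokine (Ccl, Cxcl, Cx3cl1, Xcl1), a chemokine receptor (Ccr, Cxcr, Cx3cr1, Xcr1) or an atypical chemokine receptor (Ackr1 to Ackr4). This gave 85 probe sets of 45037, which represent 53 genes of 18193, 33 for chemokines and 20 for receptors. Both samples came from A2lox.Mesp1 mouse embryonic stem cells on the 129/Ola background, which carry a Mesp1 gene that doxycycline (dox) switches on. Embryoid bodies, which are balls of differentiating stem cells, were seeded at 15000 cells/mL in 10% fetal calf serum and sorted on day 5. One array holds cells that never received dox. The other holds cells given 250 ng/mL of dox on day 2, which a further label says lasted until day 4. Both samples carry the transgene and no dox-treated cells without it were analysed here, so the action of dox and that of Mesp1 cannot be told apart.

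There is 1 array per condition. No value below could be checked in a replicate, none has a p-value, and each difference is one between these 2 samples. Signals are linear and in the arbitrary units that the authors deposited. A log2 difference subtracts the value without dox from that with dox on the log2(signal + 16) scale, a fold is that difference taken out of log2, and a gene was called higher or lower when it differed 2-fold or more. A gene is represented by its brightest probe set, and it passed the signal filter when at least 1 of its 2 signals reached the median of that array, 112 without dox and 127 with dox. Mesp1 itself had signals of 2433 and 10977, 4.49-fold higher with dox, by a probe set that may detect the transgene, the endogenous transcript or both. Genes of the sort lay within 2-fold, with 10140 and 10733 for Kdr, which encodes Flk1, and 8799 and 9277 for Tek, which encodes Tie2.

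Chemokines are small secreted proteins that guide moving cells along gradients, and their families (C, CC, CXC and CX3C) are named for the spacing of conserved cysteines near the amino end. They act on G protein-coupled receptors of the target cell, which signal through inhibitory G proteins to phosphoinositide 3-kinase and to the small GTPases of the cytoskeleton. Atypical receptors bind chemokines without that signalling and take them up, carry them across cells or hold them at the surface. In embryos Cxcl12 is the chemokine known for guiding germ cells, blood progenitors and vessels. It binds Cxcr4, which signals, and Ackr3, which removes Cxcl12 from the surroundings.

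A chemokine and the atypical receptor that binds it, Cxcl12 and Ackr3, were both about 15-fold higher with dox, and they were the only members past the signal filter that differed 2-fold. The other 17 of the 19 member genes past the filter lay within 2-fold, and no member past it was 2-fold lower. Over all 11794 genes past the filter, 5.69% were higher and 2.06% lower by that size. At that background about 1 of 19 genes would be called higher, so a count of 2 is no result about the members as a group. As for the size of the differences, 0.746% of these genes were higher by 8-fold or more, and Cxcl12 and Ackr3 ranked 32 and 33 from the top of the 11794.

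The sequences directly upstream of both genes are shown because these members moved together. They are the 250 bases before the annotated start, from RefSeq on GRCm38.p6, read 5′ to 3′ on the gene's strand. Capitals mark GGGCGG on either strand (the GC box).
Cxcl12, chr6:117168285-117168534, + strand: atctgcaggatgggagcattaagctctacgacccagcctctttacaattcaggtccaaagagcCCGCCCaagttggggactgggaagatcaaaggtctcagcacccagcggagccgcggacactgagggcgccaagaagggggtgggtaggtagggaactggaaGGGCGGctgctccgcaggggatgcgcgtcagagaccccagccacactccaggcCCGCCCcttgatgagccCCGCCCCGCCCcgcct
Ackr3, chr1:90203730-90203979, + strand: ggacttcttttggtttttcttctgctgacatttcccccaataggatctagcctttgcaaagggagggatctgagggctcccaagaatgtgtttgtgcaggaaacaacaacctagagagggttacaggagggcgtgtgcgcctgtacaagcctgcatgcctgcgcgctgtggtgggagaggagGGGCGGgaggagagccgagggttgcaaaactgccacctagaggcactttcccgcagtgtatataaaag

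The windows differ in composition. That of Cxcl12 was 64.4% G or C and held GGGCGG 5 times, of which 1 pair overlaps. That of Ackr3 was 54% G or C and held it 1 time. Among 32851 windows of the same length before annotated starts, 32.7% held the motif and 1.93% held it 5 times or more, and their median G or C content was 52.4%. TATAAA lay 8 bases before the start of Ackr3 and was not found before Cxcl12 (12.4% of all windows hold it). CANNTG, the E-box bound by basic helix-loop-helix factors, the class to which Mesp1 belongs, was found in neither window, while 66.2% of all windows hold it. ACGTG, the core bound by hypoxia-inducible factors, was in neither window, against 16.6% of all. Both strands were searched, and CANNTG reads the same on both. Absence here says only that these letters are not in this window.

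Most members gave dim signals. Above the array's median lay 22 of the 85 member probe sets without dox (25.9%) and 17 with dox (20.0%), where by construction 50.0% of all probe sets lie above it. Among all probe sets with 1 gene symbol the shares were 56.0% and 55.6%. Both arrays put 15 member probe sets above their median and 24 were above it on at least 1. The median member signal was 36.5 without dox and 35.8 with dox. A signal over 1000 was reached by 1 member probe set without dox, that of Xcl1, and by 4 with dox, those of Xcl1 and Ackr3 and 2 of Cxcl12. The brightness of a probe set also depends on its probes, so these positions do not rank the transcripts. Of the 19 genes past the filter, 12 were at or above the median on both arrays, 6 without dox only and 1, Ccl24, with dox only. For comparison, 10920 of all 11794 genes past the filter were at or above it on both arrays. The median was higher with dox, so a gene could drop below it without a lower signal. Ccr2, with 115 and 121, is counted as without dox only although its signal was slightly higher with dox. These counts are therefore not read as a loss of signal with dox.

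**Figure D1:**
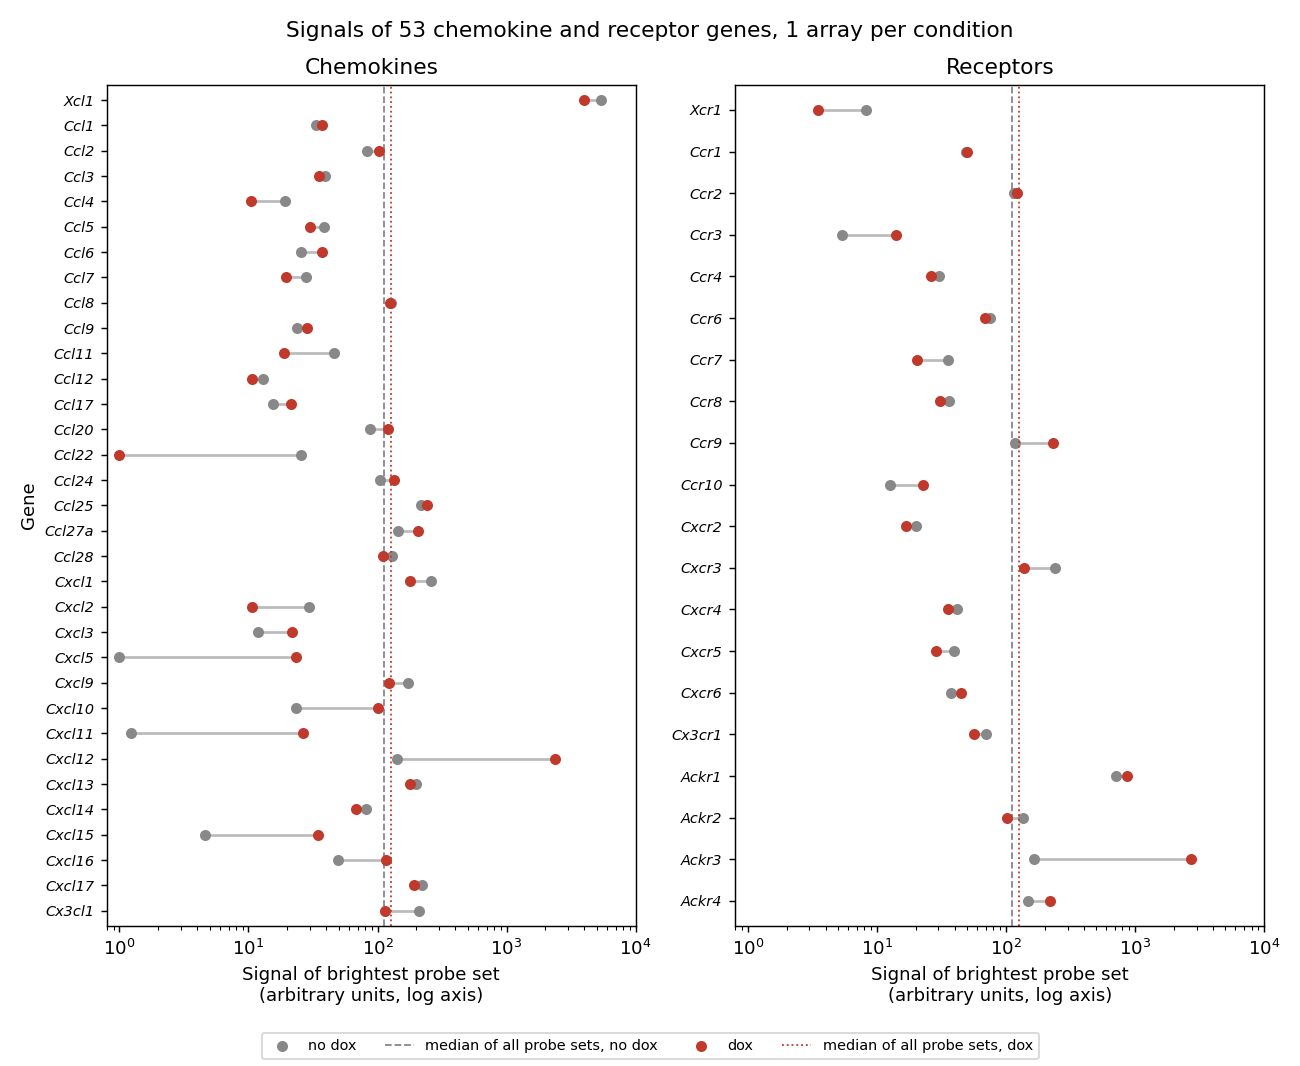
Signal of the brightest probe set of each of the 53 member genes (horizontal log axis, arbitrary units) without dox (grey) and with dox (red), with the median of all probe sets of each array as a vertical line. Cxcl12 and Ackr3 move from just above the median to 2388 and 2731, Xcl1 is bright on both arrays, and 34 genes stay below the medians.

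Among the ligands, Cxcl12 was covered by 3 probe sets. The brightest (1417574_at) had 142 on the array without dox and 2388 on the other, 15.2-fold higher (log2 difference 3.93). Another (1448823_at) had 71.0 and 1225, a log2 difference of 3.83. The signal of 71.0 is below the median of its array, so the size of this second difference depends on the pseudocount and is not an independent measure of the fold. Both probe sets were higher with dox. Across the arrays the pooled SD of this difference between probe sets of the same gene was 0.48 below a mean signal of 500 and 0.26 above it. The third gave 1, the floor of the table, and 1.51, so it carried no usable signal on either array. Without dox Cxcl12 lay near the middle of the array, at its 54th percentile by the brightest probe set, and with dox it lay at the 88th.

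Xcl1, the C chemokine that attracts cross-presenting dendritic cells, gave a high signal on both arrays. Its only probe set (1419412_at) had 5405 without dox and 3959 with dox, 1.36-fold lower (log2 difference -0.45). Xcr1, its receptor, had 8.29 and 3.47, close to the floor on both arrays. The ligand was thus measured well above the median in these cells while the probe set of its receptor was not.

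Cx3cl1, a membrane-bound chemokine that can be shed and is made by endothelium, had 209 and 115 by its brightest probe set, 1.72-fold lower (log2 difference -0.78). The other 3 probe sets were dim, between 6.07 and 27.4, and differed by -0.83, -0.35 and 0.30, so they do not settle a direction. Its receptor Cx3cr1, found on monocytes and microglia, had 69.5 and 56.9 by the brighter of its probe sets.

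By their brightest probe sets, the CXC chemokines other than Cxcl12 that passed the filter were all lower with dox by less than 2-fold. Cxcl1, which attracts neutrophils, had 260 and 178 (log2 difference -0.50) by its brightest probe set and 242 and 115 (-0.98) by another, while the third gave 84.9 and 106 (0.27). Cxcl9, induced by interferon gamma, had 172 and 123 (-0.43), and its second probe set gave 2.30 and the floor of 1. Cxcl13, which organises B cell follicles, had 198 and 179 (-0.14), and a second probe set gave 143 and 129, also -0.14. Cxcl17 had 220 and 192 (-0.18). None of these lower values reaches the 2-fold size used here, and those of Cxcl1 rest on probe sets that differ among themselves. Both lower probe sets of Cxcl1 end in _x_at or _s_at, and the higher one does not.

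Among the CC chemokines 5 of 18 genes passed the filter, all within 2-fold, while over all genes 11794 of 18193 passed. Ccl27a, a chemokine of skin, had 143 and 207 (log2 difference 0.49) by its only probe set, which ends in _x_at. Ccl24, an attractant of eosinophils, had 104 and 135 (0.33). Ccl25, the thymic and gut chemokine, had 217 and 243 (0.15), and its second probe set gave 82.0 and 74.7 (-0.11). Ccl28, made by mucosal epithelium, had 129 and 109 (-0.21), and its dimmer probe sets gave 35.3 and 4.72 (-1.31) and 16.2 and 20.9 (0.19). Ccl8 had 128 and 125 (-0.03). No probe set of a CC chemokine member reached a signal of 250 on either array.

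The 21 ligand genes below the filter had signals between 1 and 121. They are Ccl1 to Ccl7, Ccl9, Ccl11, Ccl12, Ccl17, Ccl20 and Ccl22, and Cxcl2, Cxcl3, Cxcl5, Cxcl10, Cxcl11, Cxcl14, Cxcl15 and Cxcl16. These dim signals are given as they stand, without folds. Just below the filter lay Ccl20, the ligand of Ccr6 (88.0 and 121), and Cxcl16, a chemokine made as a membrane protein (49.7 and 117). Both probe sets of Cxcl16 were higher with dox, the second with 29.0 and 97.5. Cxcl10, an interferon-induced chemokine, had 23.2 and 102 by its only probe set. By their brightest probe sets, the other dim genes past 2-fold were Cxcl5, Cxcl11 and Cxcl15, higher, and Ccl22, lower. Their signals were all under 35, with Cxcl5 at the floor of 1 without dox and Ccl22 at it with dox, so no fold is given. The second probe set of Cxcl11 was lower with dox (14.65 and 1.91), and that of Cxcl15 was near the floor (1.22 and 1). Cxcl10, Cxcl16, Cxcl5, Cxcl11, Cxcl15 and Ccl22 were singled out after their values were seen.

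Among the receptors, the signal of Ackr3 was 166 in cells without dox and 2731 in those with it, 15.1-fold higher (log2 difference 3.92). It moved from the 57th to the 90th percentile of the array. The gene has a single probe set (1417625_s_at), and the suffix _s_at marks probe sets that can detect more than 1 transcript or gene, so no second probe set supports the value. The other atypical receptors lay within 2-fold. Ackr1, which carries chemokines across venous endothelium, had 715 and 869 (0.28). Ackr2, a scavenger of inflammatory CC chemokines, had 136 and 101 (-0.38), with its other probe sets at 85.1 and 78.9 and near the floor. Ackr4, which takes up Ccl19, Ccl21 and Ccl25, had 147 and 219 (0.53) by its brightest probe set and 167 and 193 (0.19) and 182 and 178 (-0.03) by the others. All 4 atypical receptors passed the filter, as did 3 of the 16 other receptor genes, while over all genes 11794 of 18193 passed.

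Cxcr4, the signalling receptor of Cxcl12, was dim on both arrays. Its only probe set had 41.7 without dox and 35.8 with dox (log2 difference -0.16), at the 31st and 26th percentiles. The 15-fold higher Cxcl12 and Ackr3 signals therefore stood beside a Cxcr4 signal below the filter in both samples. With 1 probe set and no detection call, this does not show that the transcript was absent.

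The remaining receptors past the filter were Cxcr3, Ccr9 and Ccr2, all of them known chiefly from lymphocytes or monocytes. Cxcr3, the receptor of Cxcl9, Cxcl10 and Cxcl11, had 241 and 137 (log2 difference -0.75), 1.68-fold lower. Ccr9, the receptor of Ccl25, had 118 and 231 (0.89) by its brightest probe set, while the other 4 gave differences from -0.41 to 0.30. Ccr2, the receptor of Ccl2, had 115 and 121 (0.06), and its other 3 probe sets had signals between 7.48 and 21.1. The 13 receptor genes below the filter had signals between 3.47 and 74.8, and none differed 2-fold. They are Ccr1, Ccr3, Ccr4, Ccr6, Ccr7, Ccr8, Ccr10, Cxcr2, Cxcr4, Cxcr5, Cxcr6, Cx3cr1 and Xcr1.

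**Figure D2:**
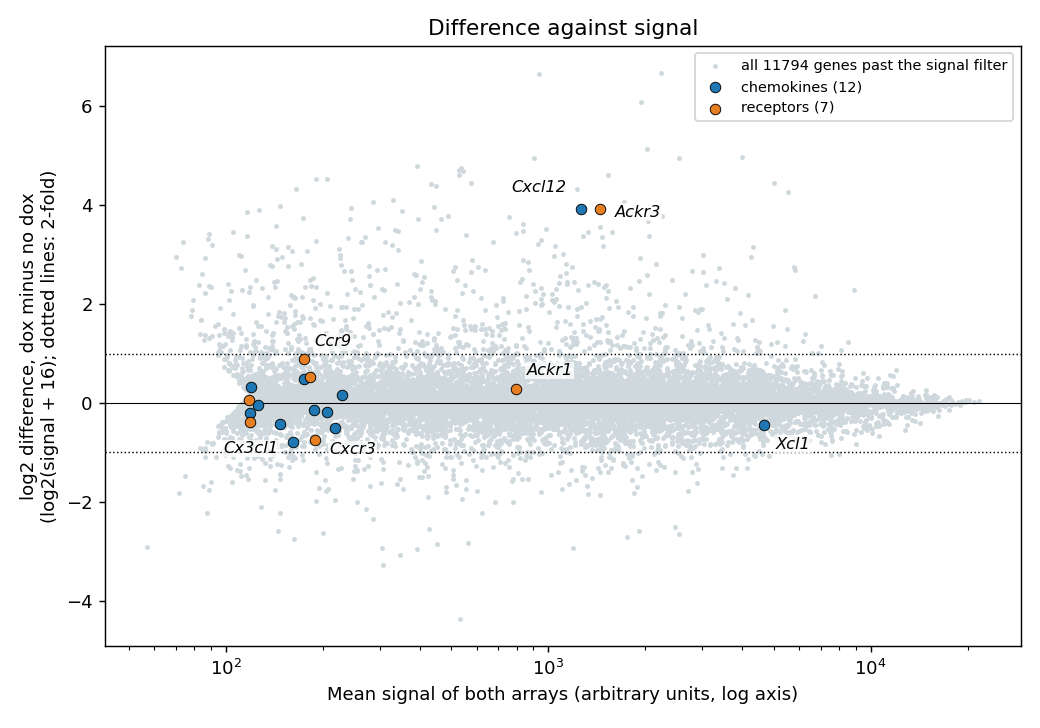
Log2 difference, dox minus no dox, against the mean signal of both arrays (log axis) for the 11794 genes past the signal filter, with 12 chemokine genes in blue and 7 receptor genes in orange. Cxcl12 and Ackr3 lie together at 3.93 and 3.92, and the other members lie between the dotted 2-fold lines.

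**Figure D3:**
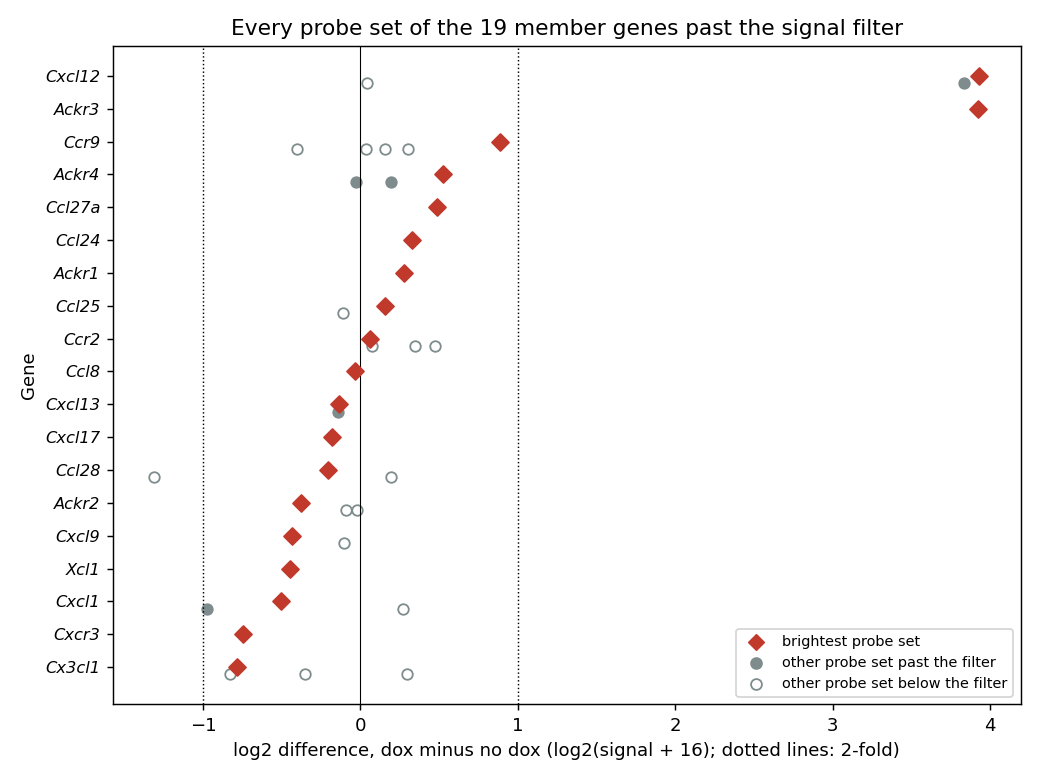
Log2 difference of every probe set of the 19 member genes past the signal filter, with the brightest probe set of each gene as a red diamond and the others as grey (past the filter) or open (below it) circles. Both bright probe sets of Cxcl12 lie near 3.9, while those of Ccr9, Cxcl1 and Cx3cl1 spread over both sides of 0.

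As a group the members past the filter were close to even. Their median log2 difference was -0.03, against 0.05 over all genes past the filter. By any amount 9 members were higher and 10 lower, while 55.6% of all genes past the filter were higher. Of the 17 within 2-fold, 9 differed by less than the pooled SD between probe sets of one gene at their signal and 8 by more. That SD measures how probe sets of 1 gene disagree, not the variation between cultures or arrays. Scaling the arrays to the same median moved the median of all genes past the filter from 0.05 to -0.13. Counts over all genes past the filter then changed from 671 higher and 243 lower to 529 higher and 402 lower. Under that scaling Cxcl12 and Ackr3 were still the only members past 2-fold, and 7 members were higher and 12 lower by any amount. The share of all genes higher by any amount was not computed under that scaling. With the deposited signals and both arrays required to pass the filter, 7 of 12 members were higher and 5 lower.

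Many chemokine genes stand next to one another in the genome. By gene order in the RefSeq table of GRCm38.p6, in which all 53 genes were found, 30 lie within 1 Mb of another member and form 7 groups. Of these 30 genes 6 passed the filter and none of the 6 differed 2-fold. Of the 23 genes that stand alone 13 passed, among them Cxcl12, Ackr3, Xcl1 and Ackr1. Over all genes 11794 of 18193 passed, a larger share than in either set. The group of Ccl3, Ccl4, Ccl5, Ccl6 and Ccl9, inflammatory chemokines of macrophages and T cells, had no signal over 39.3.

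Other parts of the chemokine system were described through fixed lists, chosen with earlier results of these data known. The shares over all genes past the filter, 5.69% higher and 2.06% lower, stand beside their counts as description only. For G proteins, receptor kinases, arrestins and RGS proteins, 2 of 29 genes past the filter were called higher and none lower. Grk3, a kinase that desensitises receptors, had 54.7 and 435, and it passed the filter through the dox array alone. Its other probe set past the filter differed by 0.55 on the log2 scale. Rgs5, an RGS protein known from pericytes, had 566 and 3498 (6.03-fold), with 2.68 by its second probe set. Rgs4, of the same family, had 2146 and 1153 (-0.89). A count of 2 of 29 is near the background. The inhibitory G protein subunits were bright and nearly level, with 9769 and 8959 for Gnai2 and 8044 and 8709 for Gnai3, named after their values were seen.

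The counts of the next lists also stand beside 5.69% higher and 2.06% lower over all genes past the filter. Of 30 genes of migration signalling past the filter, 1 was higher, the tyrosine kinase Ptk2b (60.8 and 312), and none was lower. Without dox Ptk2b was below the filter. The leukocyte-enriched phosphoinositide 3-kinase subunit Pik3cd had 9239 and 5158 (-0.84), and the regulatory subunit Pik3r1 had 542 and 981 (0.84). Among 20 genes for proteases and glycans that act on chemokines, 2 were higher and none lower. These were Cpm, a carboxypeptidase (127 and 425, 3.08-fold), and the heparan sulfate sulfotransferase Hs6st1 (91.7 and 213), which passed only through the dox array, while Hs2st1 had 1528 and 3038 (0.98). Dpp4, the peptidase that cleaves Cxcl12, stayed below the filter at 62.5 and 66.8 and was named after its values were seen.

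Among 18 inducers and transcription factors of chemokine genes, 1 was higher and 1 lower, beside 5.69% and 2.06% of all genes past the filter. Ifngr2, a chain of the interferon gamma receptor, had 319 and 739 (2.25-fold higher), and Tlr4 had 525 and 211 (2.39-fold lower). Tnfrsf1a, a receptor of tumour necrosis factor, had 4060 and 2281 (-0.83). Of 8 chemokine-like factors and receptors past the filter none was higher and 1, Cmtm8, was lower (555 and 156, 3.32-fold), while Cmtm7 differed by 0.54 and Cmtm5 by 0.38. Pf4 and Ppbp are CXC chemokines of platelets whose symbols fall outside the rule for the members. Pf4 had 168 and 88.4 (-0.81), and Ppbp stayed below the filter at 21.4 and 35.8. Scaling the arrays to the same median gave 2 higher and 3 lower genes in the first of these lists, 1 and 1 in migration signalling, 1 and 0 for proteases and glycans, and 0 and 2 for inducers.

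Markers of other cell types were also measured, through lists chosen in the same way, so their counts are description only. Beside these counts stand 5.69% higher and 2.06% lower over all genes past the filter. Fewer cells of a type and less RNA per cell cannot be told apart in these sorted bulk samples. Of 14 mesenchyme markers past the filter 10 were called higher and none was called lower. Tagln and Lum were among 4 that passed only through the dox array. The median log2 difference of the 14 was 2.55, against 0.05 over all genes past the filter. The summed signal of the 14 was 6378 without dox and 44105 with dox. Tagln (96.7 and 3960), an actin-binding protein, Lum (26.8 and 1029), a matrix proteoglycan, and Col3a1 (530 and 10557), a fibrillar collagen, differed most. These genes moved in the same direction as Cxcl12 and Ackr3, both also known from mesenchyme, and their part in that result was not tested. Of 6 cardiomyocyte markers past the filter 5 were higher, and 3 of the 6, Myl4 and Myh7 among them, passed only through the dox array. The summed signal of all 9 listed was 1754 and 6434. Myl4 (31.0 and 674), Tnnt2 (122 and 1469) and Myh7 (18.8 and 210) differed most among those past the filter. Tnni3 (58.8 and 22.8), lower with dox, and Myh6 (33.7 and 65.6) and Ryr2 (34.1 and 79.5), higher, lay below the filter. The part of these markers in the result was not tested.

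Leukocyte markers, which mark the cells that chiefly carry the Ccr and Cxcr genes, were mostly dim. Counts of called genes below also stand beside 5.69% higher and 2.06% lower over all genes past the filter. Of 17 leukocyte markers measured, 12 lay below the filter on both arrays. Among these 12, Ptprc, the pan-leukocyte gene for Cd45, had 15.9 and 1.80, and it was named in addition to the genes that differed most. Cd14, Lyz2, Tyrobp and Ms4a1 were also lower with dox, while Cd68, Itgam, Fcgr3, Fcgr1, Fcer1g, Cd3e and Coro1a were higher. Of the 5 past the filter 2 were lower, Mpo (749 and 261) and Laptm5 (4039 and 1715). Adgre1 and Csf1r lay within 2-fold (-0.25 and 0.26). The summed signal of all 17 was 6261 and 3438, and Laptm5 and Mpo make up most of it without dox. The 8 endothelial markers, of which only Kdr and Tek belong to the sort, were all past the filter. Of these 8, 7 lay within 2-fold and 1, Cldn5, was lower (3582 and 1350), while Esam and Tie1 differed by -0.35 and -0.24. Of 5 endoderm and epithelial genes past the filter 2, Krt8 and Krt18, were higher (1095 and 5934, and 969 and 3467), and Apoa1 differed by -0.18. The summed signal of all 9 listed genes was 12282 and 20091, of which Sox17 made up 9431 and 10010. That sum rests mainly on Sox17, Krt8 and Krt18, so it is not read as a measure of endoderm. Below the filter lay Cdh1 (110 and 63.8), Epcam (57.6 and 37.4) and Foxa2 (42.0 and 32.5), all lower with dox. Afp, also below it, was higher with dox (8.87 and 18.5).

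**Figure D4:**
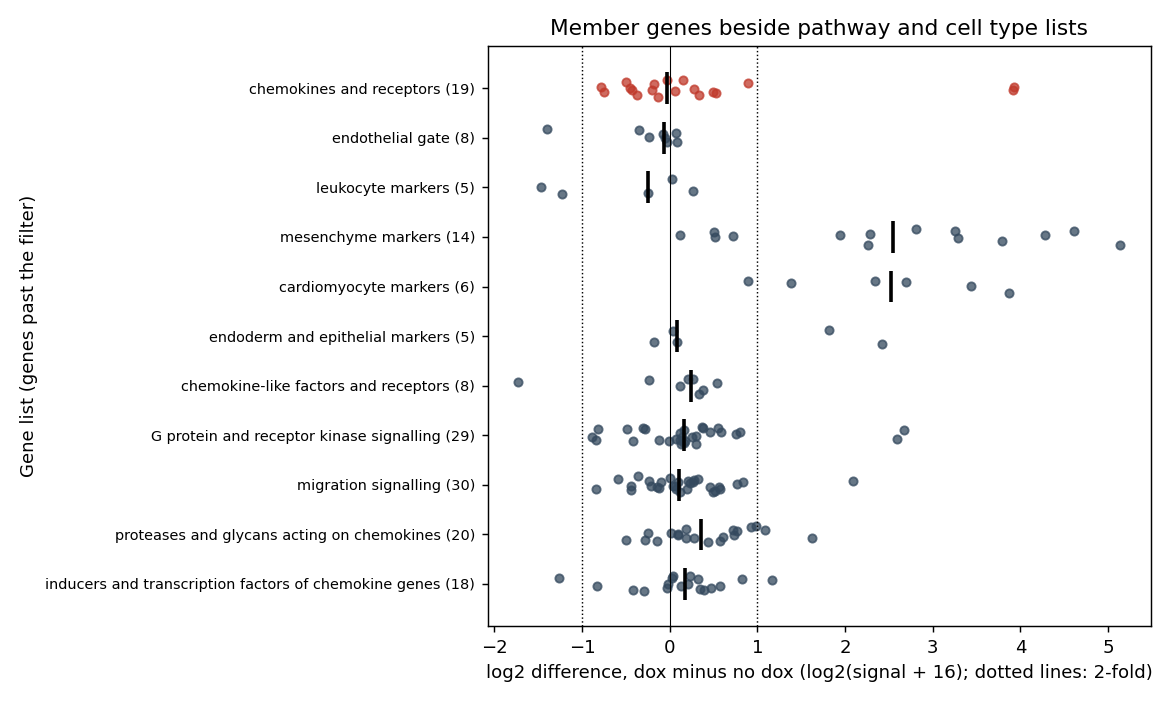
Log2 difference, dox minus no dox, of each gene past the signal filter in the member group (red) and in the fixed pathway and cell type lists (dark), with the median of each as a black bar and the number of genes in brackets. The member median is -0.03 with Cxcl12 and Ackr3 far to its right, and the medians of mesenchyme and cardiomyocyte markers are 2.55 and 2.52. The median over all genes past the filter, which are not drawn, is 0.05.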

How the data were processed

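RNA of 2 samples, 1 per condition, was measured on Affymetrix 3′ arrays from 100 ng of total RNA, per the labels' protocols. The authors deposited linear intensities, 1 for each probe set on each array. Summarisation, scaling and genome build are not given in the sources used here. The lowest deposited intensity was exactly 1, at 1165 probe sets without dox and 1102 with dox. No detection calls, control probe sets or scanner files were used, so background and saturation could not be judged, and the number of arrays limits the precision.

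Of 45037 probe sets, 34945 had 1 symbol in the platform annotation, 932 had several and 9160 had none listed. Members were matched by symbol among those with 1. Differences were computed with a pseudocount of 16 in Python 3.11.15 with numpy 2.4.6 and pandas 2.3.3, a procedure tested on simulated data. The simulated noise was smaller than the spread between probe sets of one gene in these data, so that test says little about the 2-fold calls. No test was possible with 1 array per condition. All member genes past the signal filter were named, with the 3 genes of each list that differed most. Members and lists were chosen with earlier results of these data known. Alternatives were the pseudocount, scaling, filter, probe set rule and removal of probe sets ending in _s_at or _x_at. Upstream sequences came from RefSeq.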

Additional observations from a re-analysis of the deposited data

How the results depend on the processing

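Cxcl12 was 2-fold or more higher under all 9 alternatives, and so was Ackr3 under the 8 that kept its probe set. Without probe sets ending in _s_at or _x_at the count of higher members was 1, since Ackr3 has no other. Cxcl1 and Ccl27a were then also no longer among the members past the filter, of which 16 were left. Without the signal filter the counts were 7 higher and 1 lower of 53 members, beside 4.77% higher and 2.04% lower of all 18193 genes, the added genes being those whose signals lay under the medians. Counting a gene by any of its probe sets past the filter, an alternative chosen after seeing the data, gave 2 higher and 0 lower. The log2 difference of Ackr3 ranged from 3.61 to 4.04. That of Cxcl12 ranged from 2.60 to 4.07, the lowest being the mean over probe sets, which includes the one at the floor. That mean was 0.20 for Ccr9. The other 144 of 146 values of single genes moved by less than 0.38, the SD between probe sets of one gene, although Ccl25 and Ccr2 changed sign within that range. The median of the members was 2.10 with a filter at the 75th percentile, which left 4 genes, and otherwise ran from -0.20 to 0.21. No paired analysis was possible because each condition has 1 array. Dim signals limit most members, since a signal under the array median could not be told from background here.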

Other observations

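A further 4 probe sets carried several gene symbols, at least 1 of them a chemokine, and entered no count of members. Their signals ran from 25.9 to 404, and their log2 differences from -0.36 to 0.38.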
